A study of Rattus norvegicus with 6 samples.

Results

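Dendritic cells were examined here in single-nucleus RNA data from the rat brain 48 h after permanent occlusion of the middle cerebral artery (MCAO). A nucleus was counted as dendritic when it passed the limits on depth (from 500 UMIs up, between 250 and 5000 genes, no more than 5% of UMIs mitochondrial) and 4 further criteria. It had to hold at least 3 UMIs, and 0.2% of its UMIs, of the leukocyte genes Ptprc, Csf1r, Inpp5d, Dock8, Arhgap15, Lyz2 and Cd74, and at least 2 UMIs of Flt3, Zbtb46, Clec9a and Xcr1 together. It could hold at most 3 UMIs of the neuronal genes Snap25, Syt1 and Rbfox3 and at most 1 UMI of the cell cycle genes Mki67, Top2a, Cenpf and Knl1. These criteria selected 63 of 73649 nuclei (0.0855%). The nuclei were selected on measured UMIs of these genes, so the levels of these genes in them are given as a description only.

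The 6 libraries came from male, wild-type Wistar rats, 12 weeks old. Each pooled the nuclei of 1 hemisphere over the rats of a group. The severe infarctions of 4 rats gave sMCAO ipsi and sMCAO contra, the moderate infarctions of 3 rats gave mMCAO ipsi and mMCAO contra, and 4 rats operated on without the filament gave Sham R and Sham L. The right artery was occluded, so the ipsi libraries hold right and the contra libraries left hemispheres, and tissue was taken from the levels of the brain where MRI placed the lesions. With 1 pooled library per hemisphere and severity, the nuclei are not replicates. No p-value is given for them, and an exact permutation test of 2 libraries against 2 could not go below 0.333. Rats, library and severity cannot be told apart. Intervals below are exact 95% intervals (binomial for shares, Poisson for summed UMIs) and cover counting error only.

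Dendritic cells take up antigen, cut it into peptides and display these to T cells on major histocompatibility complex (MHC) molecules. Conventional dendritic cells need the growth factor receptor Flt3 and carry the transcription factor Zbtb46. Type 1 cells bear Clec9a, a receptor for exposed actin of dead cells, and the chemokine receptor Xcr1, and are known for presenting engulfed antigen on MHC class I. Type 2 cells are known for presentation on MHC class II, and plasmacytoid dendritic cells for interferon production. In the healthy brain dendritic cells are found mainly at its borders, the meninges and choroid plexus, and they enter the parenchyma after injury. Maturing dendritic cells switch on the chemokine receptor Ccr7 and leave for lymph nodes.

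The genes on which the results turn most are those of MHC class II. The rat complex is called RT1. RT1-Ba and RT1-Bb encode the 2 chains of its B molecule, RT1-Da and RT1-Db1 those of its D molecule, and Cd74 the invariant chain that guards the peptide groove until a peptide is loaded. Class II promoters are known for a shared module of an X box, bound by the RFX complex, and a Y box, an inverted CCAAT motif bound by NF-Y, on which the co-activator Ciita assembles. The stretch that holds these boxes is shown for the 4 RT1 genes because they were high together in the nuclei described below. It was taken from RefSeq on build GRCr8, while the counts were made on mRatBN7.2, and capitals mark TGATTGG (Y box) and ACNGATG (core of the X box):
RT1-Ba: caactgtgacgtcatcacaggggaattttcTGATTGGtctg
RT1-Bb: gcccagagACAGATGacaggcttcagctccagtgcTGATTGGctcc
RT1-Da: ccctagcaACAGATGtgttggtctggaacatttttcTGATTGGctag
RT1-Db1: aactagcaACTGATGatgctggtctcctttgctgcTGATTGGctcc

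These stretches lie at chr20:4576982-4577022 (plus strand, RT1-Ba), chr20:4604171-4604216 (minus strand, RT1-Bb), chr20:4515328-4515374 (plus strand, RT1-Da) and chr20:4560234-4560279 (minus strand, RT1-Db1), just upstream of each gene's start. The Y box began 45 bases before the start in RT1-Ba, 51 in RT1-Da, 63 in RT1-Bb and 82 in RT1-Db1. In the last 3 the X core lay 27 or 28 bases before the Y box. In RT1-Ba no ACNGATG stood within 40 bases before the Y box on the strand of the gene. Among the 250 bases upstream of 33469 RefSeq promoters, TGATTGG on either strand was found in 2149 (6.42%), ACNGATG in 2860 (8.55%), and the X core followed by the Y box within 40 bases on the strand of the gene in 10 (0.0299%). Of those 10, 6 belonged to RT1 class II genes (RT1-Da, RT1-Db1, RT1-Db2, RT1-Bb, RT1-DOb and RT1-DMa), and the others to Tdo2, Ehd4, Hsd17b7 and G3bp2. The motifs overlap in no listed sequence, and a match is a run of letters, not a measured binding site.

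Dendritic nuclei came almost entirely from the infarcted hemisphere of the rats with severe infarctions. sMCAO ipsi held 54 of 8665 nuclei (0.623%, 0.469 to 0.812), mMCAO ipsi 6 of 12948 (0.0463%, 0.0170 to 0.101) and mMCAO contra 3 of 14491 (0.0207%, 0.00427 to 0.0605). sMCAO contra held 0 of 10794, and the 2 Sham libraries together 0 of 26751. Taken as 3 counts of the total, as for every 0 below, these allow shares of up to 0.0278% and 0.0112% (the exact 95% upper limit for sMCAO contra is 0.0342%). The share in sMCAO ipsi was 13.4 times (5.79 to 38.3) that in mMCAO ipsi, and the intervals of these libraries did not overlap. Before the limits on neuronal and cell cycle genes, 58 nuclei of sMCAO ipsi and 12 of mMCAO ipsi met the criteria. The ratio would thus be lower without these limits.

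The leukocyte pool itself differed between the libraries. Nuclei that met all criteria other than that on Flt3, Zbtb46, Clec9a and Xcr1, called immune nuclei here, numbered 1209 in sMCAO ipsi and 692 in mMCAO ipsi, against 125 and 205 in the contra libraries of the same rats and 19 and 24 in Sham R and Sham L. Their share of all nuclei was 2.61 times (2.38 to 2.87) as high in sMCAO ipsi as in mMCAO ipsi. Within them, dendritic nuclei made up 4.47% (3.37 to 5.79) in sMCAO ipsi, 0.867% (0.319 to 1.88) in mMCAO ipsi and 1.46% (0.303 to 4.22) in mMCAO contra, a ratio of 5.15 (2.22 to 14.7) between the ipsi libraries. The 43 immune nuclei of Sham held none, which allows up to 6.98%, so that a share among Sham leukocytes as high as that in sMCAO ipsi was not detectable at this depth. In cell pools of this kind, more dendritic nuclei and more RNA per nucleus cannot be told apart by a UMI threshold alone. Nuclei were then thinned to 1000 UMIs, which left out 1885 shallower nuclei in sMCAO ipsi and 2476 in mMCAO ipsi. Of the dendritic nuclei, only 25 of the 54 in sMCAO ipsi and 2 of the 6 in mMCAO ipsi were deep enough to enter. After thinning, 18 of 6780 (0.265%, 0.157 to 0.419) met the criteria in sMCAO ipsi, 1 of 10472 (0.00955%) in mMCAO ipsi and none in the other libraries.

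**Figure D1:**
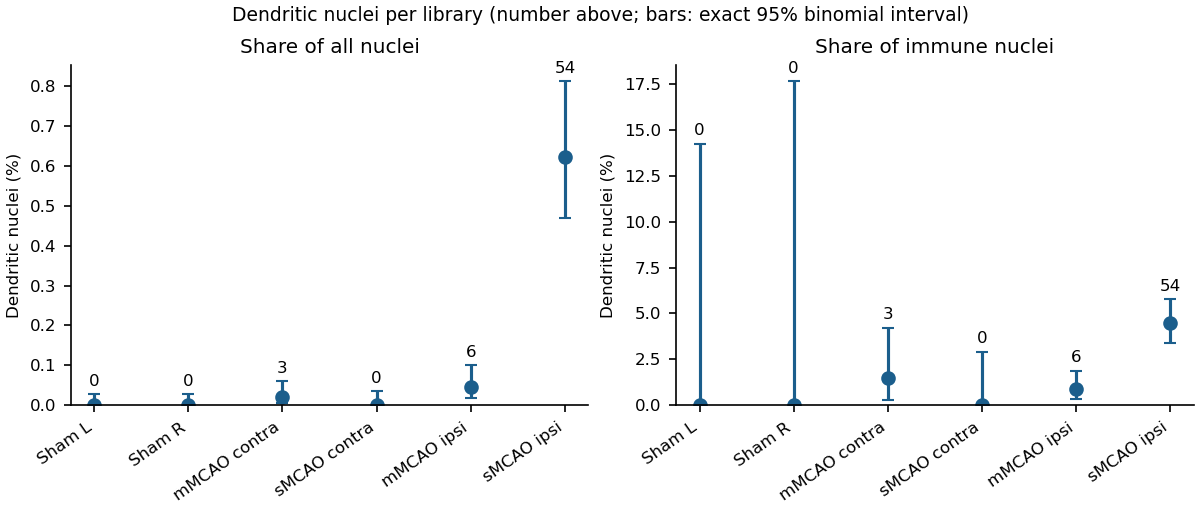
Share of dendritic nuclei among all nuclei (left) and among immune nuclei (right) in each of the 6 libraries, in percent, with exact 95% binomial intervals and the number of dendritic nuclei above each bar. The 54 nuclei of sMCAO ipsi stand above the intervals of the other libraries on the left, while on the right the wide bars of Sham rest on 24 and 19 immune nuclei.

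Flt3 RNA was also found outside these nuclei. Over whole libraries Flt3 stood at 30.3 CPM (UMIs of a gene per 1000000 UMIs in all) in sMCAO ipsi and 43.6 CPM in mMCAO ipsi, the reverse of the order of their dendritic nuclei. It stood at 51.6 and 52.3 CPM in the severe and moderate contra libraries, 44.4 CPM in Sham R and 46.7 CPM in Sham L. Neuron-like nuclei accounted for 279 of the 364 nuclei of sMCAO ipsi with 2 or more UMIs of the 4 genes, and for 518 of 525 in Sham L. Flt3 was found in 15.8% of neuron-like nuclei of sMCAO ipsi at a median depth of 6804.5 UMIs, against 83.3% of dendritic nuclei at 973.5 UMIs. Thinned to 500 UMIs per nucleus these shares were 1.44% and 63%. Clec9a, on which the nuclei were likewise selected, had 29 UMIs in sMCAO ipsi, 26 of them in dendritic nuclei, 8 in mMCAO ipsi and 1 to 4 in each of the 4 other libraries.

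MHC class II RNA, too, was highest in sMCAO ipsi. Cd74, RT1-Ba, RT1-Bb, RT1-Da and RT1-Db1 together reached 64.6 CPM in sMCAO ipsi and 8.43 CPM in mMCAO ipsi, against 1.69 and 0.998 CPM in the contra hemispheres of these rats and 0.634 and 0.342 CPM in Sham R and Sham L. The 54 dendritic nuclei, 0.623% of sMCAO ipsi, held 575 of its 2087 class II UMIs (27.6%), and 37.7% of the 1526 found in its immune nuclei. In mMCAO ipsi the 6 dendritic nuclei held 15 of 375 (4%).

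The 63 nuclei were shallow, with 503 to 3769 UMIs (median 955) and 443 to 2459 genes (median 787). In sMCAO ipsi their median of 973.5 UMIs lay close to the 1039.5 of macrophage-like and the 1114.5 of microglia-like nuclei. Those 2 classes were immune nuclei with no UMI of the 4 dendritic genes and 2 or more UMIs of macrophage genes (Mrc1, Ms4a7, Gpnmb, Cd163) or of microglia genes (P2ry12, Cx3cr1, Tmem119, Sall1, Gpr34), whichever sum was higher. They numbered 336 and 202 in sMCAO ipsi and 66 and 169 in mMCAO ipsi. Library pairs shared 118 to 281 barcodes, and 2 dendritic nuclei of sMCAO ipsi carried a barcode also present in Sham R. Without these 2 the share in sMCAO ipsi was 0.6%. Of the 54, 3 were among the 5% of nuclei in their library most like simulated doublets.

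Among the marker genes, Flt3 was found in 50 of the 63 nuclei (135 UMIs, at most 8 in a nucleus), Zbtb46 in 24 (37 UMIs), Clec9a in 16 (29 UMIs) and Xcr1 in 1. Cd74 was found in 45 (244 UMIs, at most 20 in a nucleus). 27 nuclei qualified through Flt3 alone, 12 held Flt3 and Clec9a, 13 Flt3 and Zbtb46, and 3 all of Flt3, Zbtb46 and Clec9a. At the threshold, the 32 nuclei with exactly 2 UMIs of the 4 genes had 5738 CPM of the 5 class II genes, and 71.9% of them held a class II UMI. The 93 immune nuclei just outside, with 1 such UMI, had 2555 CPM and 39.8%. The 2118 immune nuclei with none had 376 CPM and 15%, and the 31 dendritic nuclei with 3 or more had 10500 CPM and 90.3%.

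The label did not hold for all 63. In 9 nuclei the only dendritic gene was Zbtb46, and of these only 2 held a class II UMI (311 CPM together), 2 held Wdfy4, none held Runx2, and 7 held Zeb2, a transcription factor that macrophages and many brain cells also use. They made up 5 of 54 nuclei in sMCAO ipsi, 3 of 6 in mMCAO ipsi and 1 of 3 in mMCAO contra. That last nucleus also held 7 UMIs of oligodendrocyte genes. By the 4 RT1 genes, on which no nucleus was selected, 46 of the 54 nuclei with a UMI of Flt3, Clec9a or Xcr1 held class II RNA (5635 CPM), against 2 of these 9 (233 CPM).

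Lymphocyte and granulocyte markers were sparse in the 63 nuclei. Of 20 T and NK cell genes 13 were at 0, among them Cd3e and Lck, and the list summed to 15 UMIs (0 to 4 in a nucleus). Of 11 neutrophil genes 8 were at 0 (7 UMIs in all), and of 15 B and plasma cell genes 10 were at 0, among them Cd79a, Ms4a1 and Pax5 (25 UMIs in all). In sMCAO ipsi 14 macrophage genes summed to 1161 CPM in dendritic and 5557 CPM in macrophage-like nuclei, with Ms4a7, F13a1, Lyve1, Stab1, Arg1, Adgre1 and Cd68 at 0 in the former. The 13 microglia genes summed to 1054 CPM in dendritic and 3625 CPM in microglia-like nuclei. Each list includes genes that define the class it was set against, so both gaps were in part fixed by selection. The macrophage genes summed to 2029 CPM in microglia-like nuclei. In macrophage-like nuclei the microglia genes summed to 825 CPM, below the dendritic level. Other lists were not below those classes. In dendritic, macrophage-like and microglia-like nuclei, 12 monocyte genes summed to 1177, 1112 and 500 CPM and 8 vascular genes to 535, 102 and 182 CPM. The B and plasma cell genes summed to 382, 112 and 81.3 CPM and the T and NK cell genes to 214, 107 and 38.7 CPM, on 25 and 14 UMIs in dendritic nuclei. Single nuclei held up to 15 macrophage, 22 oligodendrocyte, 35 astrocyte and 25 neuron marker UMIs, and their part in the values below was not tested.

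**Figure D2:**
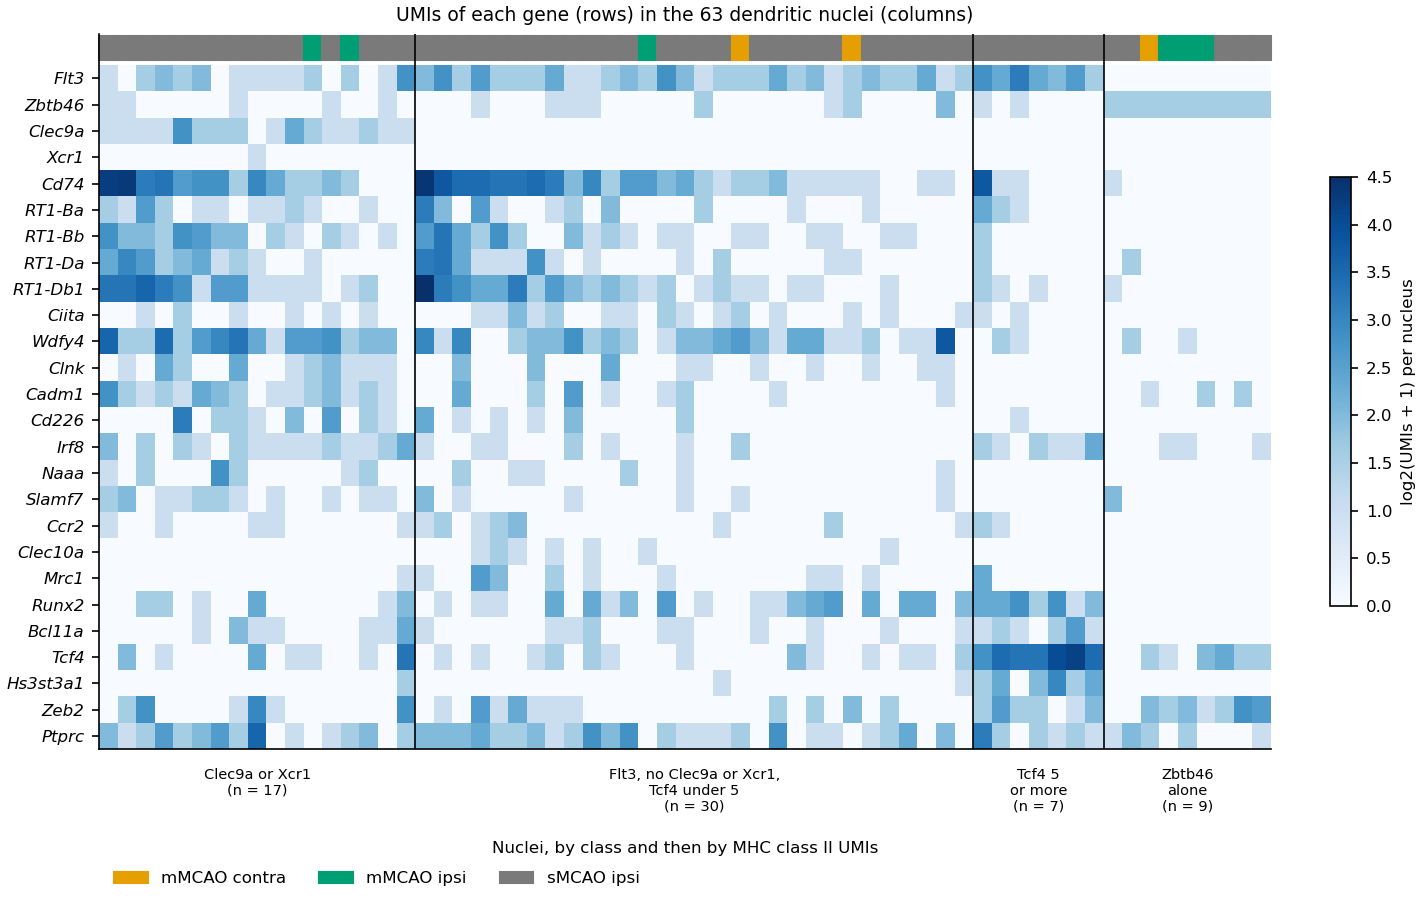
UMIs of 26 genes (rows, as log2 of UMIs plus 1) in each of the 63 dendritic nuclei (columns), grouped by the dendritic genes they held and ordered within a group by class II UMIs, with the library in the strip on top. Class II genes and Wdfy4 fill the 17 nuclei with Clec9a or Xcr1 and most of the 30 with Flt3, Tcf4 and Hs3st3a1 the next 7, and the 9 nuclei with Zbtb46 alone are nearly empty for class II.

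Dendritic nuclei were compared with 2 other classes of immune nuclei in the same tissue. Summed UMIs of the 54 dendritic nuclei of sMCAO ipsi (65438 UMIs) were set against those of 336 macrophage-like nuclei (393885 UMIs) of that library. They were also set against those of its 202 microglia-like nuclei. Left out of both classes were 569 immune nuclei with no UMI of the 4 dendritic genes and 48 with 1. Genes were compared where the mean level of both classes was 100 CPM or more, leaving out the genes that define the classes. Of 2660 genes, 363 (13.6%) were 2-fold or more higher in dendritic than in macrophage-like nuclei and 328 (12.3%) 2-fold or more lower. Against microglia-like nuclei 371 (14.1%) of 2635 genes were higher and 378 (14.3%) lower. These are counts by size with no test, and the median log2 ratio over all genes was 0.04 and -0.01. A gene absent from the other class could enter only by being high in dendritic nuclei. In mMCAO ipsi alone, with 6 dendritic nuclei, the counts were 1544 higher and 92 lower against macrophage-like, and 1551 and 88 against microglia-like nuclei. In these 6 nuclei 1 UMI was 186 CPM, so that a single UMI could make a gene count as higher. A gene at 0 in them was bounded at 558 CPM and counted as lower only from 2-fold above that. These counts are therefore no result about moderate infarctions.

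Class II genes were far higher in dendritic nuclei than in either class. The 4 RT1 genes together reached 5242 CPM in dendritic nuclei against 284 CPM in macrophage-like nuclei (18.4-fold, 14.9 to 23.0) and 65.8 CPM in microglia-like nuclei (79.6-fold, 49.0 to 138). The gap was smaller to immune nuclei outside both classes. It was 11.4-fold (9.71 to 13.5) to the 569 with no UMI of the 4 dendritic genes and 2.08-fold (1.69 to 2.57) to the 48 with 1. RT1-Db1 was 23.7-fold (16.4 to 35.2) and RT1-Ba 12.8-fold (7.73 to 21.7) above macrophage-like nuclei, with RT1-Bb (18.1-fold, 11.6 to 29.0) and RT1-Da (16.6-fold, 10.4 to 27.4) between them. These 4 intervals overlapped. Cd74, on which the nuclei were in part selected, stood at 3545 CPM, 13.7-fold above macrophage-like nuclei. Ciita, the class II co-activator, had 26 UMIs in dendritic, 19 in macrophage-like (8.24-fold, 4.39 to 15.7) and 3 in microglia-like nuclei.

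Of the 12 class II presentation genes compared, 6 were 2-fold or more higher and 1 lower, against both classes. The higher ones were the 4 RT1 genes, Ciita and Ifi30, a lysosomal thiol reductase that opens disulphide bonds of antigens (4.39-fold, 3.11 to 6.16, and 10.2-fold, 6.27 to 17.1). The lower was Lgmn, the lysosomal endopeptidase legumain, at 0.21 (0.13 to 0.32) of the macrophage-like and 0.34 (0.21 to 0.52) of the microglia-like level. The cathepsin Ctss was at 1.12 (0.74 to 1.66) and 0.56 (0.37 to 0.82). The RFX and NF-Y subunits Rfx5, Rfxap, Rfxank, Nfya and Nfyb had 1 to 5 UMIs each, too few for a comparison.

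RT1-Db1 was found in 64.8% of dendritic, 7.14% of macrophage-like, 1.98% of microglia-like and 0.733% of neuron-like nuclei, the last at a median of 6804.5 UMIs. Thinned to 500 UMIs per nucleus, these shares were 46.3% (32.6 to 60.4), 4.46%, 1.98% and 0.0306%. By summed level RT1-Db1 ran from 2170 CPM in dendritic through 91.4 in macrophage-like and 34.9 in microglia-like nuclei to 1.13 to 6.57 CPM in the 5 other classes, whose order did not go beyond their intervals except that neuron-like nuclei lay below oligodendrocyte-like ones.

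**Figure D3:**
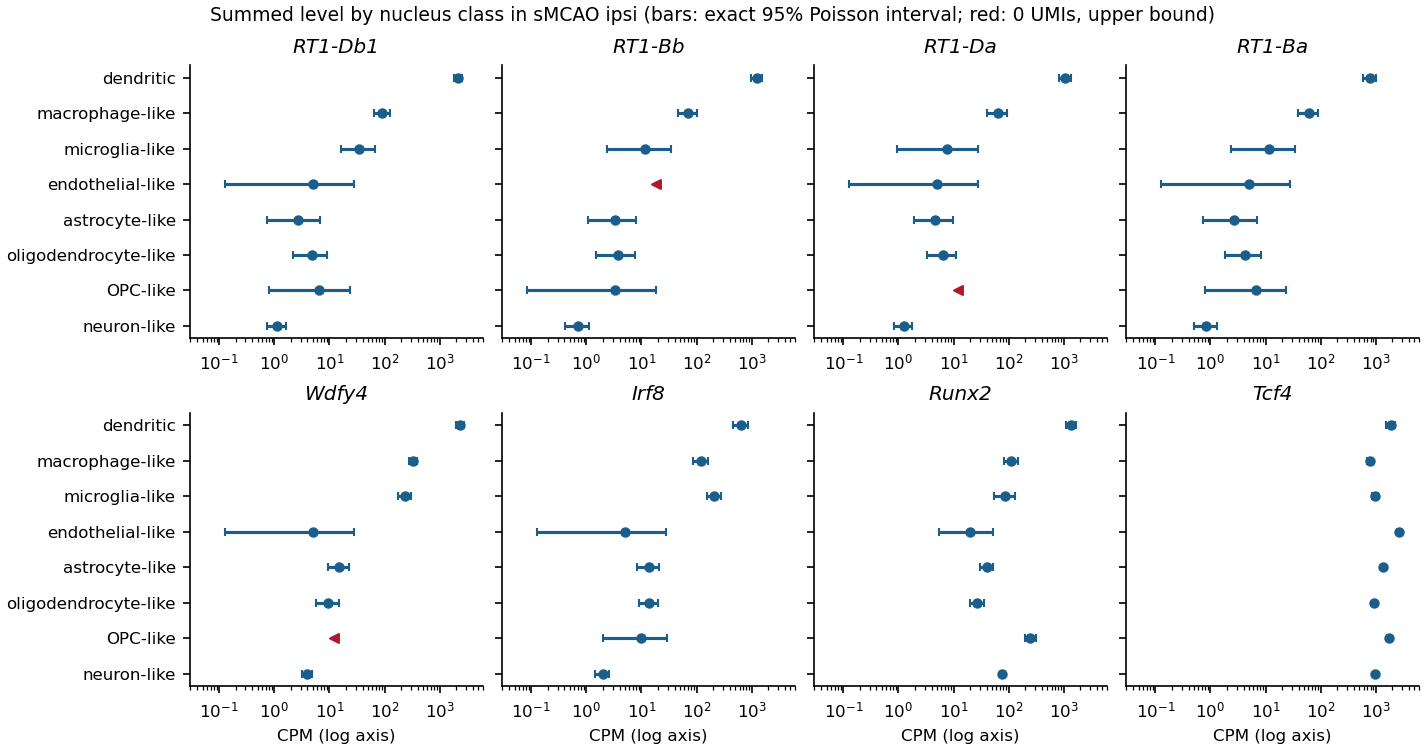
Summed level of 8 genes in 8 classes of nuclei of sMCAO ipsi, in CPM on a log axis with exact 95% Poisson intervals (red triangles mark classes with 0 UMIs, at the upper bound). RT1-Db1, RT1-Bb, RT1-Da, RT1-Ba, Wdfy4, Irf8 and Runx2 were highest in dendritic nuclei, while Tcf4 was higher in endothelial-like nuclei (2675 CPM against 1849).

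Of the genes of type 1 conventional dendritic cells, 5 were compared (12 of 14 list genes were in the files), of which 4 were 2-fold or more above macrophage-like and 5 above microglia-like nuclei. The criteria admitted nuclei through 2 type 1 genes, Clec9a and Xcr1, and through no type 2 gene, so these counts are no independent sign of a subset. Wdfy4, needed for presentation of cell-borne antigen on class I, stood at 2323 CPM, 7.09-fold (5.57 to 9.04) above macrophage-like and 10.0-fold (7.37 to 13.7) above microglia-like nuclei. Outside both classes, it was 8.39-fold (6.68 to 10.5) above the 569 immune nuclei with no UMI of the 4 dendritic genes. Against the 48 with 1 it was 3.58-fold (2.44 to 5.38) higher. It was found in 74.1% of dendritic, 30.4% of macrophage-like, 24.3% of microglia-like and 2.11% of neuron-like nuclei, or 64.8%, 14.9%, 9.90% and 0.214% when thinned to 500 UMIs. Irf8, the transcription factor of this lineage, was 5.25-fold (3.37 to 8.16) and 3.00-fold (1.95 to 4.58) higher, and Naaa, a lipid amidase, 7.02-fold (3.56 to 14.0) and 11.8-fold (4.85 to 33.0). Gcsam had 18 UMIs in dendritic nuclei and none in the others, at least 36.1-fold and 23.7-fold higher, and was compared only because of its level in dendritic nuclei. The adhesion molecule Cadm1 was 1.78-fold (1.26 to 2.48) and 2.18-fold (1.5 to 3.13) higher. Batf3, a defining factor of type 1 cells, had 2 UMIs, Xcr1 1 and Snx22 none.

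Of the 3 type 2 genes compared, none was 2-fold or more higher and the integrin Itgam was lower, at 0.24 (0.088 to 0.54) of the macrophage-like and 0.21 (0.076 to 0.47) of the microglia-like level. The lectin Clec10a had 7 UMIs against 12 in macrophage-like nuclei (3.51-fold, 1.17 to 9.67), the transcription factor Irf4 3 and Cd209a none.

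Among 8 dendritic cell transcription factors compared with macrophage-like nuclei, 5 were 2-fold or more higher and 1 lower. Bcl11a, a factor of lymphoid and plasmacytoid cells, was 16.2-fold (8.37 to 33.4) higher with 35 UMIs against 13, and Runx3 9.03-fold (4.96 to 16.8) higher. Bcl6 was 6.02-fold (2.47 to 14.6) higher. The plasmacytoid factor Tcf4 was 2.39-fold (1.92 to 2.96) higher, but 8 of the 54 nuclei held 85 of its 121 UMIs. In the other 46 it stood at 673 CPM, 0.87 (0.60 to 1.23) of the macrophage-like level. Runx2, listed with plasmacytoid cells, was 12.2-fold (8.39 to 17.9) higher, and 10.0-fold (6.70 to 15.2) in those 46. Zeb2 was at 0.25 (0.19 to 0.32) of the macrophage-like and 0.43 (0.33 to 0.54) of the microglia-like level.

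Cross-presentation genes other than Wdfy4 differed less. With Wdfy4 counted, 4 of the 7 list genes compared were 2-fold or more above macrophage-like nuclei. The others were Erap1, Rab43, a small GTPase, at 4.71-fold (2.40 to 9.12), and Nlrc5, the class I co-activator, at 3.74-fold (1.95 to 6.96). Against microglia-like nuclei 6 of 7 were, again with Wdfy4 counted. B2m, the class I light chain, was at 1.15-fold (0.58 to 2.10) of the macrophage-like level, but was among the 6 above microglia-like nuclei. Co-stimulatory RNA was sparse, with 9 UMIs of Cd80, 9 of Cd86 (6.02-fold above macrophage-like, 2.12 to 17.1) and 1 of Cd40 in 54 nuclei. Havcr2, the checkpoint receptor TIM-3, was 8.80-fold (4.12 to 19.4) above macrophage-like nuclei and at 1.44-fold (0.81 to 2.48) of microglia-like nuclei.

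Receptors that guide entry and growth also stood out. Ccr2, the chemokine receptor by which monocytes and their progeny leave the blood, had 21 UMIs against 4 in macrophage-like (31.6-fold, 10.7 to 127) and 5 in microglia-like nuclei (16.6-fold, 6.08 to 56.3). Ccr7 had 2 UMIs in 1 nucleus. The integrin Itga4 was 4.05-fold (2.53 to 6.43) and 6.51-fold (3.63 to 12.0) higher and the actin-binding Lsp1 8.03-fold (3.56 to 18.6) and 12.6-fold (4.42 to 44.1), and in the list of cell movement 4 of 15 genes were higher and 2 lower against each class. Of 12 cytokine and receptor genes 4 were higher and 2 lower than in macrophage-like nuclei. Il7r was 18.1-fold (7.40 to 50.3) and Il18 2.01-fold (1.44 to 2.75) above macrophage-like nuclei, whereas against microglia-like nuclei both lay under 2-fold, at 1.51 (0.87 to 2.53) and 1.92 (1.36 to 2.69). Kit, the receptor of stem cell factor, had 17 UMIs against none, at least 34.1-fold above macrophage-like nuclei, and the 7 other mast cell genes were at 0 in these 54 nuclei. Il12b, Tnf, Il6 and Il10 had no UMI. Of the interferon response genes, none of 2 compared with macrophage-like and none of 3 compared with microglia-like nuclei differed 2-fold. Of 3 pattern recognition genes 2 were higher against each class, among them the endocytic receptor Ly75 (5.76-fold, 3.06 to 10.8, and 5.79-fold).

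The lysosomal and lipid genes that mark engorged phagocytes pointed the other way. Of 16 compared, 9 were 2-fold or more below macrophage-like nuclei and 1 above, with a median log2 ratio of -1.34 against 0.04 over all genes. Abca1, a cholesterol exporter, was at 0.11 (0.051 to 0.20), Spp1 (osteopontin) at 0.19 (0.088 to 0.35), Apoe at 0.26 (0.16 to 0.41) and the cathepsin Ctsb at 0.32 (0.21 to 0.48). Against microglia-like nuclei the list was even, with 4 of 15 higher and 4 lower. Macrophage-like nuclei were chosen on macrophage genes, Gpnmb among them. The part of that choice in the lower levels against macrophage-like nuclei was not tested.

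Among genes with 20 or more UMIs in these nuclei, the largest ratios to macrophage-like nuclei were those of Cd226 (37 UMIs against 1, 223-fold with an interval of 37.6 to 9031), an activating receptor, Clnk (34 against 1, 205-fold, 34.3 to 8318), a signalling adaptor, and Slpi (30 against 2), a protease inhibitor. Also among the 12 largest were AABR07072096.1 (21 against 2), Hs3st3a1, a heparan sulphate sulphotransferase, and the receptor Slamf7 (26 against 0 each, at least 52.2-fold), Jaml (22 against 3), the adaptor Grap2 (36.1-fold, 13.9 to 119), Peli2 (33.1-fold, 11.2 to 132), Ccr2, Parp8 (24.7-fold, 15.2 to 41.8) and ENSRNOG00000050647 (26.4-fold). Of the 57 UMIs of ENSRNOG00000050647, 56 lay in 1 nucleus, whereas Parp8 was found in 28 and Cd226 in 15 of the 54. The smallest were those of Lrmda (0.14), Pitpnc1 (0.18), Pid1 (0.20), Lgmn, the Notch effector Rbpj (0.22), Slc8a1 (0.23), Zeb2, Apoe, Tgfbr1 (0.27), Ctsb, Cux1 (0.36) and Dab2 (0.37).

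Against microglia-like nuclei the 12 largest ratios held the 4 RT1 genes, Bcl11a, Cd226 (at least 48.7-fold), Clnk (at least 44.7-fold), Slpi and Grap2 again, and in addition the kinase gene Lrrk2 (70 UMIs against 5, 55.2-fold, 22.6 to 175), the serotonin receptor gene Htr7 (32 against 2) and Slco3a1 (47.4-fold). Among the 12 smallest were Nav3 (0.16), Rapgef5 (0.17), Tmcc3 (0.23), Slc8a1 (0.25), Atm, Qk, Frmd4a, Slc9a9, Abr, Plxdc2 and Pitpnc1. Both comparisons share the same 54 dendritic nuclei, so their overlap is no separate result.

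**Figure D4:**
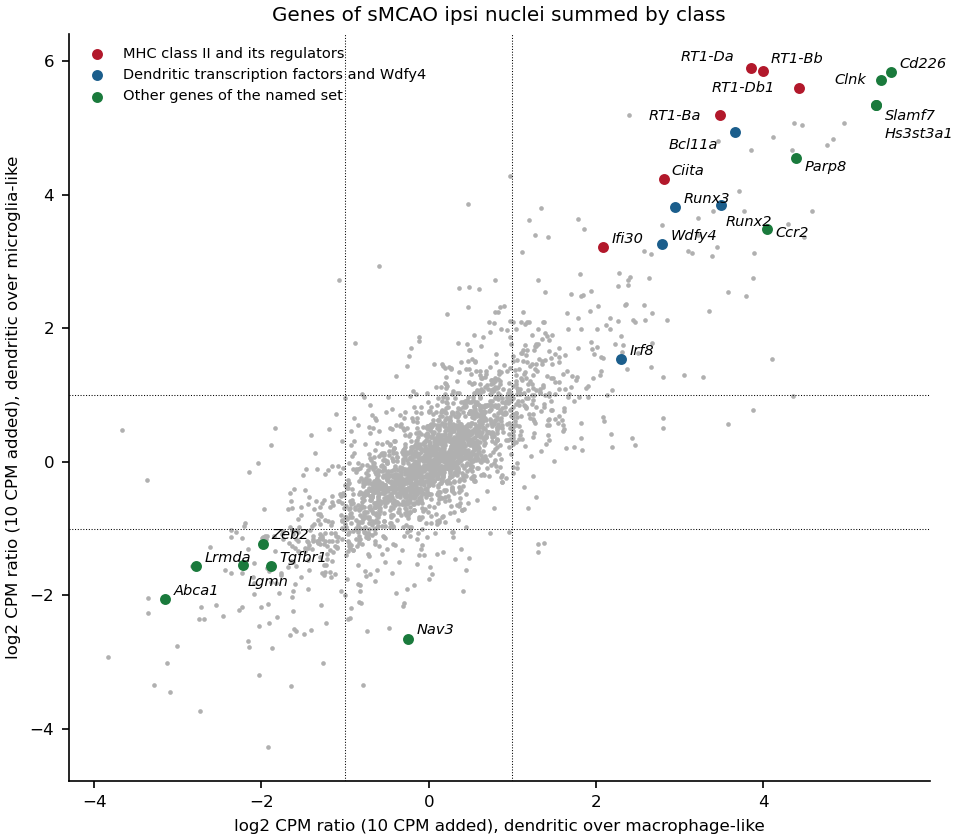
Log2 ratio of summed levels (10 CPM added) in the 54 dendritic nuclei of sMCAO ipsi over macrophage-like (x axis) and over microglia-like nuclei (y axis) of that library, 1 point per gene, dotted lines at 2-fold. Both axes share the same dendritic nuclei, so the slope of the cloud is no result. The labelled class II genes, Cd226 and Clnk lie at the upper right, Abca1, Lrmda and Lgmn at the lower left.

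The 63 nuclei were not uniform. The 17 with Clec9a or Xcr1 (15 of sMCAO ipsi, 2 of mMCAO ipsi) held 0 to 39 class II UMIs (median 10), and 16 of them held at least 1. Compared with the 46 others, Cadm1 was 3.95-fold (2.23 to 7.14), Cd226 5.02-fold (2.46 to 10.7), Naaa 4.76-fold (1.86 to 13.1), Lrrk2 3.99-fold (2.45 to 6.57), Clnk 3.20-fold (1.59 to 6.50), Irf8 2.84-fold (1.53 to 5.26) and Wdfy4 2.35-fold (1.71 to 3.23) higher in them. Cadm1, Naaa, Irf8 and Wdfy4 are, like Clec9a, known genes of type 1 cells and were not used to choose these 17. Irf8 was not particular to them, as given below. Runx2 was at 0.46 (0.24 to 0.84). Tcf4 was at 0.50 (0.30 to 0.82) of the 46, but at 1.71 (0.86 to 3.43) of the 30 other nuclei with Flt3 described next. Against those 30, Cadm1 was 2.89-fold (1.56 to 5.56), Irf8 4.10-fold (1.84 to 10.0) and Wdfy4 1.43-fold (1.03 to 1.97) higher. Cd226 was 3.07-fold (1.48 to 6.75) and Naaa 2.69-fold (1.05 to 7.40) higher. Clnk was at 1.81-fold (0.90 to 3.68), an interval that includes no difference. The 5 class II genes stood 1.83-fold higher, but 1.32-fold when Zbtb46 was left out of the criteria, and 2 of the 17 nuclei carried 22 UMIs of the astrocyte gene Gpc5. After Clec9a and Gpc5, the largest ratios were those of the haemoglobin genes Hba-a2 (6.80-fold, 30 UMIs in 3 nuclei) and Hbb-b1 (6.04-fold, 20 UMIs in 2 nuclei). Their part in the other ratios was not tested.

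Of the remaining nuclei with Flt3, 30 held 0 to 63 class II UMIs (median 5.5), and 29 held at least 1, with Wdfy4 in 25, Runx2 in 18, Mrc1 in 9, Ccr2 in 8 and Clec10a in 7. No nucleus with Clec9a or Xcr1 held Clec10a. A further 7, grouped after their values were seen, held 5 or more UMIs of Tcf4. Only 4 of these held class II RNA (2753 CPM), Wdfy4 was in 2 and Runx2 in all 7. With an eighth nucleus that also held Clec9a, Hs3st3a1 had 24 UMIs in 7 of 8 of them against 2 UMIs in 2 of the 55 others, and the adaptor Blnk was 6.05-fold (2.69 to 13.8) and Bcl11a 4.42-fold (2.12 to 9.07) higher. Irf8 was 2.46-fold (1.24 to 4.67) higher in the 8 than in the 55 others. In the 7 without Clec9a or Xcr1 it stood at 1010 CPM (504 to 1806), against 1193 CPM (765 to 1775) in the 17 with them. RT1-Da was at 0.15 (0.018 to 0.57) and Cst3 at 0.21 (0.055 to 0.54) in the 8. Tcf4, Runx2 and Bcl11a are known plasmacytoid factors. In the 63 nuclei Siglech and Spib had 1 UMI each, that of Siglech in 1 of these 7, and Ly6d, Ccr9, Irf7 and Tlr9 none. Siglech, Spib, Ly6d and Ccr9 had no UMI in macrophage-like or microglia-like nuclei of sMCAO ipsi either. Counts this low cannot decide the type, so these 8 were given no name.

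Between the severities the number of dendritic nuclei differed more clearly than their RNA. The 54 nuclei of sMCAO ipsi had 8787 CPM of the 5 class II genes and the 6 of mMCAO ipsi 2790 CPM, a ratio of 3.15 (1.89 to 5.66). A nucleus of sMCAO ipsi held 0 to 63 class II UMIs (median 5), with at least 1 in 46 of 54. The class II UMIs of the 6 were 4, 5 and 6 in the nuclei with Flt3 or Clec9a and 0 in the 3 with Zbtb46 alone. Without the nuclei that held Zbtb46 alone the ratio was 1.16, and 1.18 when Zbtb46 was left out of the criteria. Wdfy4 was at 1.56-fold (0.77 to 3.68), Irf8 at 0.84-fold (0.31 to 3.24) and Ptprc at 2.53-fold (0.96 to 9.42), intervals that include no difference as well as a severalfold one. Without the nuclei with Zbtb46 alone, Wdfy4 was at 0.65 (0.31 to 1.66) and Irf8 at 0.61 (0.16 to 5.22). Runx2 had 89 UMIs in sMCAO ipsi and none in the 5377 UMIs of mMCAO ipsi, at least 2.44-fold higher. Without the nuclei with Zbtb46 alone, 1797 UMIs were left in mMCAO ipsi, where 3 counts exceed the level of sMCAO ipsi (1513 CPM), so that no difference was then detectable.

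The widest ratios between the severities lay mostly outside immune genes. Among 744 genes with 20 or more UMIs, the 8 highest in sMCAO ipsi were AY172581.24 (23.4-fold), Mt-co3 (14.2-fold), Mt-cyb (12.4-fold), AY172581.9 (10.3-fold), Cst3 (104 UMIs against 1), Mt-co2 and Mt-co1 (206 and 182 UMIs against 2 each) and RT1-Bb (81 against 1). The Mt- genes are mitochondrial, and their median share of UMIs was 1.25% in the 54 nuclei and 0.171% in the 6. This share and the 5% limit of the criteria counted only genes named Mt-, and left out AY172581.24 and AY172581.9. Among the 8 lowest were ENSRNOG00000066703 (0.034), Sdk1 (0.059), Opcml (0.068), Nlgn1 (0.089), Csmd1 (0.10), Cadm2 (0.12) and ENSRNOG00000029663 (0.15). Of these, Opcml, Nlgn1, Csmd1 and Cadm2 are adhesion or synaptic genes that neurons carry, but not neurons alone. In the clustering described below, ENSRNOG00000066703 and Opcml were top genes of a cluster of immune nuclei, along with Pcdh15, Megf11, Sox6, Tnr and Bcas1. The study calls Bcas1 a marker of immature oligodendrocytes. The part of mitochondrial RNA and of RNA of neurons or other brain cells in the other ratios was not tested. Without the Mt- and AY172581 genes and ribosomal protein genes the class II ratio was 3.28.

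To see how far the criteria captured the cells, the 2274 immune nuclei of all libraries were clustered without the genes of the criteria. Of 12 clusters, 1 of 93 nuclei (80 of sMCAO ipsi) held 47 of the 63 dendritic nuclei, 15 of the 17 with Clec9a or Xcr1, 2 macrophage-like and no microglia-like nuclei. Of its other nuclei, 20 had 1 UMI of the 4 dendritic genes and 26 none. The 5 class II genes reached 10187 CPM in the 47, 8369 CPM in the 20 and 6702 CPM in the 26, against 4297 CPM in the 16 dendritic nuclei outside the cluster. The 26 held 24 UMIs of Wdfy4 in 13 nuclei and 31 of Runx2 in 14, but none of Clnk. Class II genes were among those clustered, so these levels describe the cluster and test nothing.

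The smallest cluster, 19 nuclei (17 of sMCAO ipsi and 2 of mMCAO ipsi, median 858 UMIs), carried the genes of mature migratory dendritic cells and can be called mature migratory dendritic-like, although only 1 of the 19 met the criteria and none held Flt3. The 21 genes of that list summed to 11047 CPM in it, against 729 CPM in the 47 dendritic nuclei of the larger cluster. In the 2147 immune nuclei outside both clusters and the criteria they summed to 415 CPM. The clustering did not leave out genes of this list, so these levels describe the cluster and are no test of its name. Ccr7 had 18 UMIs in 8 nuclei and Fscn1, the actin bundler of dendritic processes, 21 in 8, with none of either in the 47. Cd83 had 12 UMIs in 9, the NF-kB subunit Relb 16 in 11, the survival gene Birc3 21 in 13 and Tmem123 33 in 15. Il7r was found in all 19 (58 UMIs), Ly75 in 14, the cystine transporter gene Slc7a11 in 15 (45 UMIs) and Cd274, which encodes PD-L1, in 7. The chemokine genes Ccl22 and Ccl17 had 1 UMI and none. The 5 class II genes stood at 4929 CPM, Zbtb46 had 7 UMIs in 6 nuclei, Wdfy4 1 UMI and Runx2 2. In the 63 dendritic nuclei the same 21 genes summed to 46 UMIs, 0 to 6 in a nucleus.

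**Figure D5:**
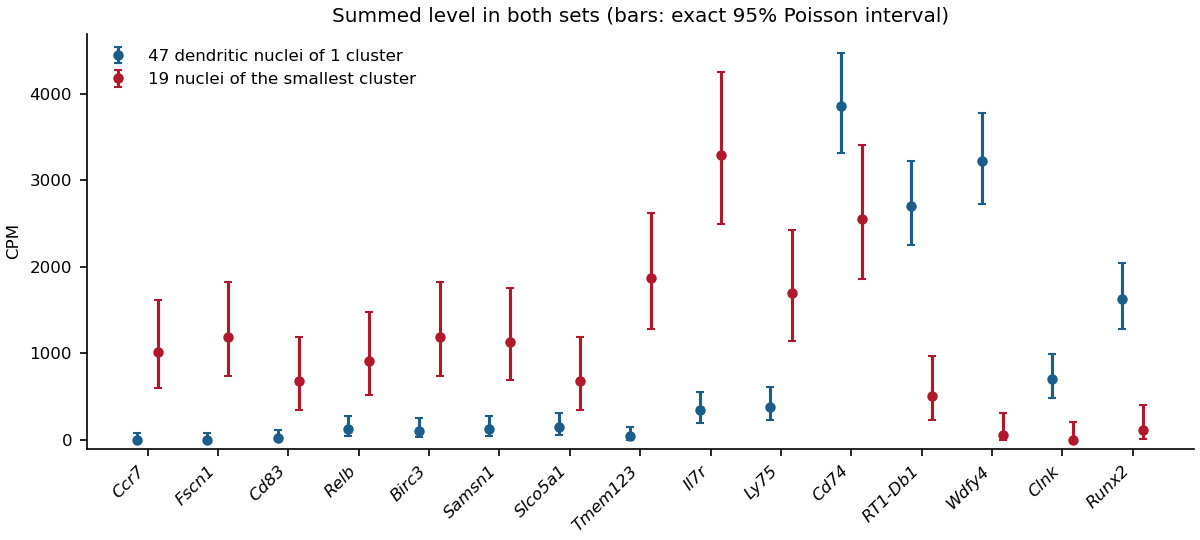
Summed level, in CPM with exact 95% Poisson intervals, of 15 genes in the 47 dendritic nuclei of the larger cluster (blue) and in the 19 nuclei of the smallest cluster (red). Ccr7, Fscn1, Cd83, Birc3, Tmem123, Il7r and Ly75 are higher in the 19, and RT1-Db1, Wdfy4, Clnk and Runx2 in the 47, as the clustering used these genes.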

How the data were processed

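The authors deposited raw UMI counts per gene and nucleus (30560 genes), made with Cell Ranger 7.0.0 from a 5' droplet kit on mRatBN7.2, intronic reads included. The removal of free RNA and doublets and the filters described by the study come later and are not in these counts. The libraries held 33012945 to 52513380 UMIs, with medians of 2059 to 3360 per nucleus past the limits. No column of unmapped samples was present.

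Counts were summed per library and class and given as CPM, with ratios and exact intervals. An edgeR test had been planned for libraries with 20 or more dendritic nuclei, but only sMCAO ipsi had them, so no test was run and size rules replaced it. A class with 0 UMIs was bounded at 3 counts over the class. Genes named were the 12 largest and 12 smallest ratios with 20 or more UMIs, the 8 largest and smallest between severities, the gate genes, and from each list the genes with most UMIs or that define a subset. The nuclei, gene lists and rules were chosen with earlier results of these data known. Nuclei were clustered by leidenalg 0.10.2 with igraph 0.11.9 (resolution 1) in Python 3.11.15, numpy 2.4.6, scipy 1.17.1, pandas 2.3.3 and scikit-learn 1.9.0. Doublet-like nuclei were marked by simulation and kept. Of 9 RT1 class II genes 8 had a RefSeq promoter. The comparison step was checked on simulated data. A few genes that these rules name are not reported here.

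Alternatives were other criteria, thinning, no filter, leaving out libraries, doublet-like nuclei or shared barcodes.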

Additional observations from a re-analysis of the deposited data

How the results depend on the processing

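A count was taken as moved when it changed over 1.5-fold, and a share or ratio when it left its own 95% interval, which is wide for sparse genes. Leaving out 32 alternatives that repeat the reported value by construction, 19 of 93 values for the main comparisons and 4 of 120 for single genes moved, and none changed direction. Without the filter on low levels, 3013 genes were higher and 1159 lower than in macrophage-like nuclei, and 2265 and 1328 against microglia-like nuclei, as many more genes entered. Leaving out either MCAO ipsi library gave 363 to 1544 higher and 92 to 328 lower against macrophage-like nuclei, and 371 to 1551 and 88 to 378 against microglia-like nuclei, and genes at 0 UMIs in the 6 nuclei of mMCAO ipsi, such as Runx2, then gave no value. The 1544 and 92, and the 1551 and 88, are those of these 6 nuclei, where 1 UMI was 186 CPM. With 3 or more UMIs of the 4 dendritic genes required, the share was 0.0154% in mMCAO ipsi and 0.323% in sMCAO ipsi, and the class II ratio between the severities 1.55. Thinning to 1000 UMIs gave 0.00955%, 0.265% and, in mMCAO contra, 0%. The class II ratio between the severities was 1.18 with Zbtb46 left out of the criteria and 1.16 without nuclei that lacked Flt3, Clec9a and Xcr1. The class II ratio of nuclei with Clec9a or Xcr1 to the others was 1.32 and 1.42 in these settings and 2.22 with no neuronal UMI allowed. The causes of these moves were not tested. The ratio of shares between the ipsi libraries ran from 12.7 to 24.4 over the other criteria. It was 27.8 (4.39 to 1158) after thinning, on 18 and 1 nuclei. None of these alternatives lifted the limits on neuronal and cell cycle genes, without which 58 nuclei of sMCAO ipsi and 12 of mMCAO ipsi qualified. Leaving out Cd74 from the criteria, nuclei without Flt3, Clec9a and Xcr1, or nuclei with shared barcodes, summing both ipsi libraries, and all alternatives for the Clec9a comparison, the values without Tcf4-rich nuclei included, were chosen after seeing the data. No paired analysis was possible because the comparisons of genes lie within 1 library. For shares, ipsi exceeded contra in both of 2 pairs of hemispheres, by 0.0256 and 0.623 percentage points, and the exact paired permutation test gave its smallest p, 0.5. As no test across genes was run, DESeq2, its size factors and a fit without the replicate block were not run. At a median of 955 UMIs, the absence of a gene from a nucleus is not informative.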

Other observations

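Ligands of dendritic cell receptors were read over whole libraries. Csf1, the ligand of Csf1r, stood at 16.6 CPM in sMCAO ipsi and 5.73 CPM in mMCAO ipsi. Dendritic nuclei and immune nuclei as a whole had the same order in these libraries. Csf1 stood at 4.55 and 3.65 CPM in the severe and moderate contra libraries, the reverse of the order of their dendritic nuclei (0 and 3). In Sham R and Sham L it stood at 2.91 and 3.16 CPM. Il34, the other ligand of that receptor, lay between 9.47 CPM (sMCAO ipsi) and 12.4 CPM (mMCAO contra), and Kitlg, the ligand of Kit, between 21.4 CPM (sMCAO ipsi) and 30.1 CPM (sMCAO contra). Xcl1, the ligand of Xcr1, had 2 to 5 UMIs in each library, and Ccl19, a ligand of Ccr7, 0 to 5. Ifng, an inducer of Ciita in many cells, had no UMI in any of the 6.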
